A study of Mus musculus with 6 samples.

Results

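The Wnt10a and Cd34 cells of Day 10 digits in a dish (DID) cultures were the 708 cells, of 16707 that passed the cell filters, that held at least 3 UMIs of Wnt10a and Cd34 combined and fewer than 10 UMIs of the immune genes Tyrobp and Fcer1g combined. A UMI is a molecular tag that marks a single captured mRNA. A cell passed the filters with at least 3000 UMIs, at most 7500 detected genes and at most 25% of its UMIs on mitochondrial (mt-) genes. Culture A held 313 of these cells among 8350, which is 3.75% (exact binomial 95% interval 3.35% to 4.18%), and culture B held 395 among 8357, which is 4.73% (4.28% to 5.20%). The intervals cover counting error only. The gate read Wnt10a, Cd34, Tyrobp and Fcer1g, so the levels of these genes at Day 10 are given as descriptions with no test.

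DID cultures are grown from the distal forelimb mesenchyme, the future hand plate or autopod, of wildtype CD-1 mouse embryos at E11.5, which is dissected, pooled over embryos, dissociated and plated at high density. No group carried an allele or a drug, and all groups shared the tissue, the strain and the medium with fetal bovine serum. Independent cultures were captured by droplet single-cell RNA sequencing after 2, 7 and 10 days, with n = 2 libraries per time point and 230286310 to 332572927 UMIs per library. They are lettered A and B within each time point, and the letters do not link a culture across days. The Day 10 libraries shared 40 cell barcodes. The tests below compare cell groups within a library and measure how that difference varies between libraries. Since tissue was pooled over embryos, they do not measure the spread between animals.

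WNT ligands are secreted lipid-bearing proteins that bind Frizzled receptors with an LRP5 or LRP6 co-receptor and stabilise β-catenin, while R-spondins raise the response by keeping Frizzled receptors on the cell surface, and secreted antagonists such as the sFRPs, DKKs, WIF1 and NOTUM lower it. In the limb, WNT signals from the ectoderm and the loose mesenchyme hold back cartilage formation, and WNT10A is known for its part in teeth, hair, skin and bone. CD34 is a sialomucin of the cell surface, carried by blood progenitors and endothelium and by many connective tissue fibroblasts. Mesothelin (Msln) is a surface protein best known from mesothelium, the lining of the body cavities.

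On the GRCm38 assembly, Wnt10a (ENSMUSG00000026167) lies at chr1:74791516-74804179 on the plus strand, 6193 bases beyond the end of Wnt6 (ENSMUSG00000033227), at chr1:74771892-74785322 on the same strand. Cd34 (ENSMUSG00000016494) lies far along that chromosome, at chr1:194938819-194961279, plus strand. The 2 other genes that were used to describe these cells are Msln (ENSMUSG00000063011, chr17:25748613-25754378, minus strand) and Rspo1 (ENSMUSG00000028871, chr4:124986430-125009099, plus strand). The promoters of Wnt6, Cd34 and Rspo1 are printed because the gate gene Cd34 and the WNT-side genes differ in their CpG content, with each CG dinucleotide in capitals. Each run is 5′ to 3′ on the plus strand of GRCm38.p6, from 250 bases before to 50 bases after the RefSeq start, at chr1:74771642-74771941 for Wnt6, chr1:194938571-194938870 for Cd34 and chr4:124986180-124986479 for Rspo1.
Wnt6: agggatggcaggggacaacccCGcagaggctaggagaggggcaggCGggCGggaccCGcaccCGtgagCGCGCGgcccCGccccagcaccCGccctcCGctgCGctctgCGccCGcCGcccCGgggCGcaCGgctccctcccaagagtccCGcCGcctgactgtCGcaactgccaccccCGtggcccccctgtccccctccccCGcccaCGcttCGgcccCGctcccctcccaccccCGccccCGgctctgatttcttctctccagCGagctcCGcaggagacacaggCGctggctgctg
Cd34: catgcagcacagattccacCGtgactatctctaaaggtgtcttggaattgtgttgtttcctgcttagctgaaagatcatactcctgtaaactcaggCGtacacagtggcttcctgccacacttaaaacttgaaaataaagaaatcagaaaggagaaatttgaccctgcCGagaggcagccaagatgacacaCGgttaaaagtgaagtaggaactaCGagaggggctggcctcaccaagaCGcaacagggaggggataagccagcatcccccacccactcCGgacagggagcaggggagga
Rspo1: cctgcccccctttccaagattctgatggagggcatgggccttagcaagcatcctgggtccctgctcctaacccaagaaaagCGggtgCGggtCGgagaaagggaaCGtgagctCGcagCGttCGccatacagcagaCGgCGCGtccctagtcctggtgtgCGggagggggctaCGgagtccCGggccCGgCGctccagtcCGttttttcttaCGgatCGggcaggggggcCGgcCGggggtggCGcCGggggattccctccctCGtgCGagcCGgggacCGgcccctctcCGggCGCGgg
The Wnt6 window holds 31 CG dinucleotides and 76.7% G or C, the Rspo1 window 29 and 69%, and the Cd34 window 7 and 50%. The median over 32851 RefSeq mouse promoters of this length was 7 CG dinucleotides. The windows of Wnt6 and Rspo1 were thus rich in CG, and that of Cd34 sat at the median.

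In each culture, gated cells with both genes outnumbered those with Wnt10a alone and those with Cd34 alone, each counted separately. In culture A, 110 cells held Wnt10a with no Cd34 UMI, 60 held Cd34 with no Wnt10a UMI and 143 held both, and in culture B the counts were 107, 60 and 228. The median cell had 3 Wnt10a UMIs in culture A and 4 in culture B, up to 27 and 31, and 2 Cd34 UMIs in each culture, up to 19 and 23. The gated cells held 67.6% (A) and 82.4% (B) of all Wnt10a UMIs and 65.4% and 75.1% of all Cd34 UMIs of the passing cells. Summed over the cells of a library, Wnt10a stood at 77.5 CPM (the gene's share of all UMIs, scaled to a common library total) in culture A and 125 in culture B, against 2.14 and 1.89 in all other cells. Cd34 stood at 54.5 and 66.2 CPM against 1.66 and 1.55. A further 2 cells of culture A and 6 of culture B reached 3 UMIs but were left out as immune.

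**Figure D1:**
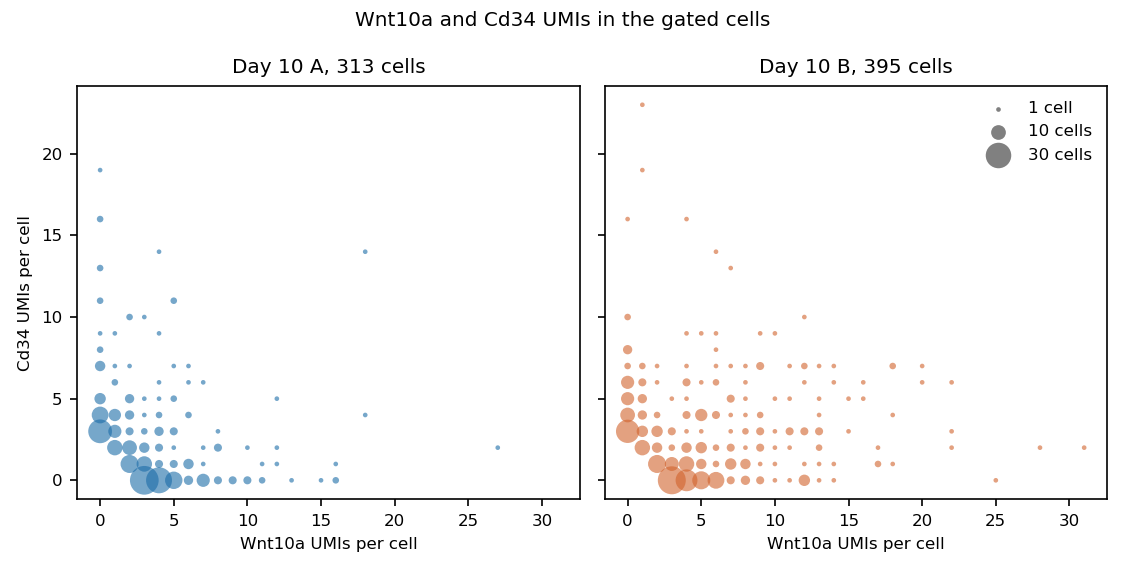
Wnt10a UMIs (x axis) against Cd34 UMIs (y axis) per cell for the Wnt10a and Cd34 cells of Day 10, one panel per culture, with the bubble area giving the number of cells at each pair of counts. Counts reach 27 Wnt10a and 19 Cd34 UMIs in culture A and 31 and 23 in culture B, and 143 and 228 cells lie off both axes.

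Msln was above 0 on both sides of the gate limit. It stood at 0.49 and 0.46 CPM in cells with no gate UMI and at 2.33 and 2.85 with 1. The 187 cells of culture A and 157 of culture B with 2 UMIs, just outside, had Msln at 6.32 and 8.71 CPM, and the 90 and 87 cells with 3 UMIs, just inside, had it at 6.18 and 15.6 CPM. The 112 and 210 cells with 6 or more UMIs had Msln at 21.5 and 105 CPM. Between them, cells with 4 UMIs had it at 11.96 and 26.1 CPM and cells with 5 UMIs at 1.75 and 29.7, so that culture A showed no steady climb. The gate counts raw UMIs and so favours deep cells. The gated cells had a median of 42949 UMIs and 5968 genes in culture A and 40675 and 5850 in culture B, against 28729 and 5058, and 27296.5 and 4907.5, in the other cells. The comparisons of gated with other cells at Day 10 and Day 7, and their difference, were therefore also computed with cells of 20000 to 50000 UMIs alone. Those with Prg4, Cnn1 and Tnmd cells and between Wnt10a-only and Cd34-only cells were not. No doublet caller was run. Of the gated cells, 7.03% and 2.03% also passed a gate for Prg4 (3 UMIs), 22.4% and 14.4% one for the contractile gene Cnn1 (10 UMIs), 17.9% and 14.4% one for the tendon gene Tnmd (3 UMIs), and 17.3% and 28.4% one for the cartilage collagen Col2a1 (20 UMIs, which 42.0% and 42.5% of the other cells passed).

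Each gate gene was also measured in cells chosen by the other gene alone, which at Day 10 is a description, since both genes were picked with these libraries known. In cells with at least 2 Wnt10a UMIs, Cd34 stood at 23.7 and 41.1 CPM against 3.37 and 3.39 in the remaining cells, a log2 fold change of 3.22. In cells with at least 2 Cd34 UMIs, Wnt10a stood at 38.5 and 99.8 CPM against 5.09 and 5.78, a log2 fold change of 3.55. Each gene was thus at a higher level in cells chosen by the other in both cultures. The Day 7 values are given further on, where results were also known when the genes were picked.

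The share of cells that passed the gate was larger in each Day 10 library than in any library of the earlier time points. It was 0.324% and 0.216% at Day 2 (29 and 21 cells), 0.748% and 0.843% at Day 7 (70 of 9355 and 79 of 9373 cells), and 3.75% and 4.73% at Day 10. Among cells of 20000 to 50000 UMIs it was 0.183% and 0.166%, then 1.03% and 1.23%, then 4.14% and 5.50%. With every cell thinned at random to 3000 UMIs and a gate of 1 UMI, it was 0.201% and 0.431%, then 0.748% and 0.747%, then 2.35% and 2.99%. The Day 10 values did not overlap those of the earlier days on any of these measures, and 2 libraries against 2 cannot reach 0.05 in an exact permutation test.

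Across 17310 tested genes, 652 were called higher (3.77% of the genes tested) and 1047 lower (6.05%) in the Wnt10a and Cd34 cells of Day 10 than in the other cells of the same culture. Among called genes with at least 20 CPM in the gated cells, and leaving aside the label gene Msln, the keratin gene Krt7 had the largest fold change, followed by the interleukin-33 receptor gene Il1rl1, the synuclein gene Sncg and the extracellular matrix gene Efemp1, and cartilage genes filled 8 of the 10 places that the naming rule gave to lower genes. A gene was called with an adjusted p under 0.05 and a log2 fold change of at least 1 in size, and the median over all genes tested was -0.05. The cells of each library were summed before the test, so a library counts once. Without culture B, 394 genes were called higher and 704 lower.

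The 3 label genes beside the gate genes are given as descriptions at Day 10, since they were picked with results of these libraries known. Msln stood at 13.1 CPM in culture A and 68.6 in culture B, against 0.80 and 0.99 in the other cells. Rspo1, which encodes an R-spondin, stood at 3.42 and 17.7 CPM against 0.25 and 0.35. Wnt6, the neighbour of Wnt10a, stood at 4.84 and 11.4 CPM against 0.44 and 0.50. All 3 genes were higher in culture B than in culture A among the gated cells, while the other cells of the cultures were alike. The share of gated cells with at least 1 UMI was 14.7% and 42.0% for Msln, 7.03% and 26.6% for Rspo1 and 10.5% and 26.3% for Wnt6. In immune cells, which should lack these genes and had median depths of 21025.5 and 22150.5 UMIs, it was 0% and 1.72% for Msln, 0% and 0.57% for Rspo1, and 0% and 4.6% for Wnt6.

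Among surface and epithelial-type genes, Krt7, a simple epithelial keratin, stood at 8.47 CPM in culture A and 51.6 in culture B against 1.17 and 1.43 in the other cells. The log2 fold change was 4.16 ± 0.45 (adjusted p = 7.41e-05, edgeR's quasi-likelihood test with Benjamini-Hochberg adjustment over all genes). The ± value is the SE of the model fit, here of 8 sums of Day 7 and Day 10 with a spread shared across genes. It is not the SE over the 2 cultures of Day 10, and Krt7 gave 5.16 without culture A and 2.84 without culture B. Il1rl1, whose product ST2 binds interleukin-33, stood at 63.5 and 74.5 CPM against 4.36 and 3.91, which gave 4.06 ± 0.13 (adjusted p = 2.49e-08, edgeR). Il1rl1 was close in the 2 cultures, and 43.5% and 53.9% of the gated cells held a UMI of it, against 5.82% and 4.17% of the other cells and 7.14% and 5.75% of immune cells. Gjb2, a gap junction connexin, stood at 122 and 91.4 CPM against 20.5 and 19.5 (log2 fold change 2.40). Kcnn4, a calcium-activated potassium channel, stood at 21.6 and 33.5 CPM against 5.17 and 4.90 (2.43), and the prostaglandin transporter gene Slco2a1 at 23.5 and 42.2 CPM against 4.08 and 3.68 (3.04). Sbsn and Klk8, suprabasal and kallikrein genes best known from stratified epithelia, stood at 13.1 and 56.8, and 11.6 and 28.6 CPM, against 4.52 and 5.54, and 3.66 and 3.14 (2.55 and 2.48).

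Of the other genes among the 20, Efemp1, which encodes fibulin-3, stood at 26.3 and 61.3 CPM against 2.75 and 2.40 (log2 fold change 3.99). Spon2, a secreted matrix protein gene, stood at 32.1 and 73.6 CPM against 6.36 and 6.1 (2.99), and Col18a1, the basement membrane collagen from which endostatin is cut, at 47.8 and 103 against 10.2 and 9.41 (2.86). Epiregulin (Ereg), an EGF receptor ligand, stood at 25.8 and 46.9 CPM against 7.62 and 6.08 (2.37). Igfbp6, which binds IGF2, stood at 92.9 and 166 CPM against 25.9 and 22.6 (2.37). In each of these genes both cultures lay above both values of the other cells, with culture B above culture A.

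Intracellular genes among the 20 included Stmn2, a microtubule regulator of neurons that the study used as an osteoblast marker, at 312 and 227 CPM against 51.4 and 32.7 (log2 fold change 2.70 ± 0.08, adjusted p = 2.24e-08, edgeR). Crabp1, a cytoplasmic carrier of retinoic acid, stood at 276 and 226 CPM against 38.5 and 29.8 (2.88 ± 0.10, adjusted p = 3.15e-08, edgeR). For Stmn2, Crabp1 and Gjb2 culture A lay above culture B, the reverse of Msln and Krt7. Sncg (γ-synuclein) stood at 24.7 and 66.7 CPM against 2.28 and 2.88 (4.02). Ahr, the aryl hydrocarbon receptor, stood at 15.4 and 43.1 CPM against 2.12 and 2.72 (3.46), and Fosl1, the AP-1 factor FRA1, at 22.9 and 39.5 against 4.48 and 3.79 (2.88). Cdc42ep2, an effector of the GTPase CDC42, gave 2.28, and Gchfr, the feedback regulator of GTP cyclohydrolase, gave 2.28 with 20.9 and 84.9 CPM against 8.91 and 9.64. Beside Msln, all 19 genes stayed called in cells of 20000 to 50000 UMIs (2.40 to 4.94), without culture A (2.21 to 5.16) and without culture B (1.21 to 3.85). Without culture B, Krt7 fell to 2.84, Sbsn to 1.52 and Gchfr to 1.21.

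**Figure D2:**
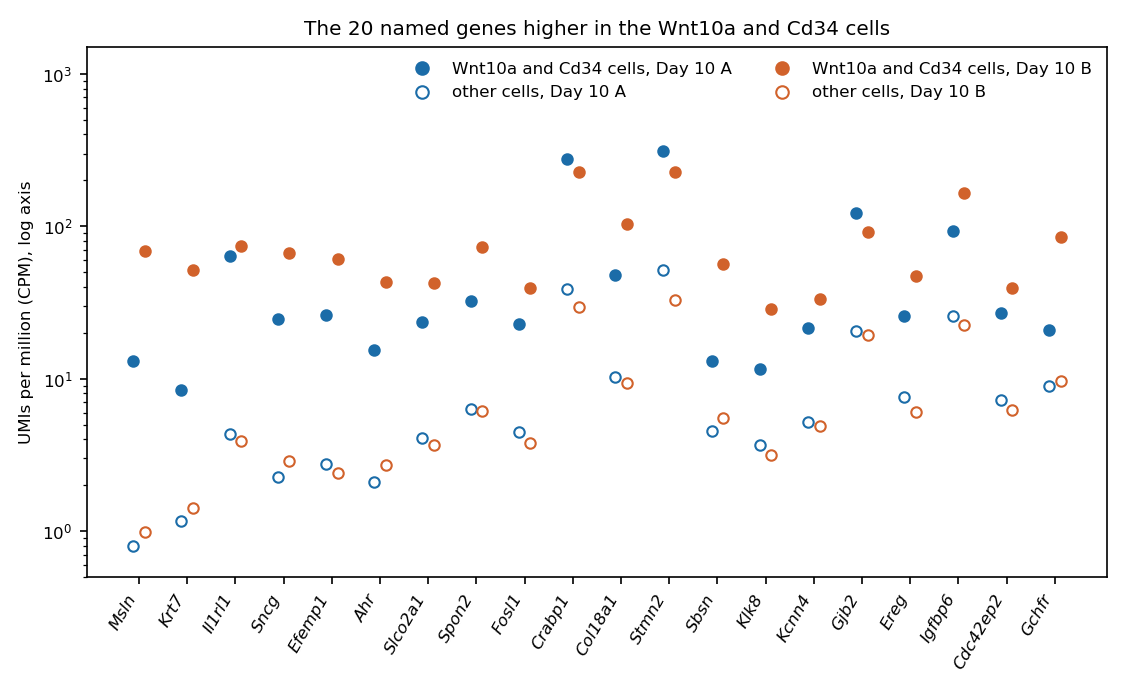
Level on a log axis (CPM) of the 20 genes of largest log2 fold change in the Day 10 comparison, with filled points for the Wnt10a and Cd34 cells and open points for the other cells, culture A in blue and culture B in orange. Every filled point lies above both open points of its gene, and culture B exceeds culture A widely for Msln (68.6 against 13.1), Krt7 (51.6 against 8.47) and Gchfr (84.9 against 20.9).

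RefSeq promoters of the same 300-base window were found for 14 of the 20 genes. The AP-1 letters TGANTCA, on either strand, were in 2 of them, Efemp1 at -154 and Sbsn at -119 and -6 from the start site, while 7.81% of all 32851 promoters hold them. The TCF/LEF letters CTTTGNT, also sought on either strand, were in the promoter of Gjb2 (-35), against 18.6% of all promoters. The letters TATAAA were in that of Slco2a1 (-29) and, as TTTATA on the opposite strand, in that of Igfbp6 (-148). Of all promoters, 13.6% hold them on either strand. A match is a run of letters and says nothing of binding.

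The 10 lower genes named by rule were 8 cartilage genes, lysozyme and the chemokine gene Cxcl2, and the other cells include chondrocytes and immune cells. The gate takes immune cells from the gated cells alone, and no alternative takes them from the other cells. Lower values of immune genes such as lysozyme thus follow from the gate, and whether Cxcl2 does was not tested. Comp, a cartilage matrix protein, stood at 61.4 CPM in culture A and 83.4 in culture B against 837 and 774 in the other cells. Matn1, a matrilin of cartilage, stood at 95.3 and 83.5 CPM against 881 and 922 (log2 fold change -3.34), and the chondrocyte proteoglycan gene Snorc at 37.2 and 101 against 683 and 765 (-3.52). Ucma (-3.83), Scrg1 (-3.57), Cnmd (-3.46), Hapln1 (-3.40) and Panx3 (-3.31) made up the cartilage group. Lysozyme (Lyz2) stood at 1.07 and 1.95 CPM against 65.7 and 76.6 (-5.54), and the chemokine gene Cxcl2 at 1.07 and 4.32 against 36.7 and 40.6 (-3.83). With Col2a1 cells left out of the other cells, Lyz2 (-6.21) and Cxcl2 (-4.50) kept their calls, while none of the 8 cartilage genes was called lower and Matn1 reached 1.82 and Snorc 1.72 in the opposite direction, in a comparison that keeps the gated cells with Col2a1. With Col2a1 cells left out of the gated cells instead, all 10 genes were called lower, Matn1 at -5.29 and Snorc at -5.90. Each alternative takes Col2a1 cells from 1 side only, which by itself moves cartilage genes in that direction.

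The label "surface-like" was checked with a list of 11 mesothelial genes. Beside the label gene Msln, 5 passed the filter on low counts and 3 of these were called higher (3.77% of all genes were). These were the keratins Krt18 (96.8 and 114 CPM against 21.5 and 23.9, log2 fold change 2.21) and Krt8 (4.91 and 20.1 against 2.07 and 2.11), and Bnc1, a factor of mesothelium and skin, at only 2 and 7 UMIs in all, or 0.14 and 0.43 CPM. Krt19 stood at 17.2 and 12.5 CPM against 8.76 and 8.72 and was not called, and Upk1b was called lower. Defining mesothelial genes were missing. No UMI of Upk3b, Lrrn4, Muc16 or Upk1b was counted in the gated cells of either culture, and Wt1 stood at 0 and 0.12 CPM and Gpm6a at 0 and 0.06. The label was therefore not taken up as a cell type name, and the cells are called by their gate genes.

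CD34 is also read as a marker of endothelial progenitors, and the endothelial list held calls in both directions. Of 12 genes, 9 passed the filter, 2 were called higher and 2 lower (median 0.46), against 3.77% and 6.05% of all genes. Cdh5, the cadherin of endothelial junctions, was at 0.14 and 0 CPM, no UMI of Emcn, Tie1 or Kdr was counted in the gated cells, and Pecam1 stood at 0.14 and 0.43 CPM against 0.20 and 0.40. The VEGF receptor gene Flt1 was called higher, at 19.2 and 17.5 CPM against 7.83 and 6.30 (log2 fold change 1.38). Cldn5 was also called higher, but its UMIs came from culture B alone, at 0 and 7.67 CPM against 0.03 and 0.03. Eng, an endothelial TGF-β co-receptor, was called lower, at 5.34 and 6.63 CPM against 12.5 and 13.7. In cells of 20000 to 50000 UMIs Eng (-0.97) was not called, nor was Flt1 (0.81) with Col2a1 cells left out of the other cells.

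Of the list of CD34-type connective tissue fibroblasts, 11 of 12 genes passed the filter and 1 was called, Mfap5, a microfibril protein gene, at 47.0 and 38.8 CPM against 21.9 and 19.6 (log2 fold change 1.04, and 0.48 with Col2a1 cells left out of the other cells, where it was not called). Below the size limit, Ly6a stood at 106 and 172 CPM against 70.1 and 80.6 (0.85, adjusted p = 0.001, edgeR) and Cd248 at 67.1 and 69.7 against 43.8 and 38.8 (0.73, adjusted p = 5.88e-05). Pi16 stood at 0.50 and 0.49 CPM against 0.48 and 0.34, and Dpt at 0.14 and 0.18 against 0.39 and 0.31. The list's median was 0.47, above that of all genes, and none of its genes was called lower. Of all genes, 3.77% were called higher and 6.05% lower, so neither count is a result about this short list. Of 8 tested epidermal and ectodermal genes, Perp, a desmosome-associated gene, was called higher at 4.63 and 12.1 CPM against 1.72 and 1.73, Krt15 was called lower, and Krt5, Krt14 and Krt17 had no UMI in the gated cells.

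The study used Spp1, Igfbp7, Cnn1, Stmn2 and Wnt10a as osteoblast markers in these libraries. Beside the gate gene, Stmn2 and Spp1 (osteopontin) were called higher, Spp1 at 3512 and 3458 CPM against 1298 and 1373 (log2 fold change 1.38). Igfbp7 stood at 551 and 474 CPM against 582 and 643, and Cnn1 at 164 and 114 against 122 and 111, and neither was called. All 8 genes of a separate bone list were called lower (median -2.05), against 6.05% of all genes. Alkaline phosphatase (Alpl) stood at 10.5 and 12.2 CPM against 87.2 and 101 (-3.05), the osteoblast factor Sp7 at 3.70 and 3.22 against 20.5 and 22.6 (-2.64), osteocalcin (Bglap) at 0.36 and 0.18 against 6.19 and 6.46, and Runx2 at 27.7 and 26.4 against 56.7 and 60.7 (-1.12). Bone sialoprotein (Ibsp) stood at 276 CPM in culture A and 47.1 in culture B against 515 and 791. In cells of 20000 to 50000 UMIs 5 of the 8 stayed called, and 4 with Col2a1 cells left out of the other cells or without culture B.

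Other connective tissue lists held calls in both directions. With 3.77% of all genes called higher and 6.05% lower, 1 call in a list this short is no result about the list. Of 11 contractile genes, Actg2, an actin of smooth muscle, was called higher, at 292 and 263 CPM against 117 and 128 (log2 fold change 1.18), and the list's median was 0.60. Actg2 was not called with Col2a1 cells left out of the other cells (0.60), and it was -0.98 with cells that passed the Prg4, Cnn1 or Tnmd gate left out of the gated cells but not of the other cells. Of 6 tenocyte genes, Thbs4 was called higher and Mkx and Fmod lower, and Tnmd stood at 48.4 and 41.6 CPM against 25.6 and 22.6, a log2 fold change of 0.90 that missed the size limit. Thbs4 (0.63) was not called with Col2a1 cells left out of the other cells, Fmod (-0.89) in cells of 20000 to 50000 UMIs and Mkx (-0.76) without culture B. Of 10 joint genes, podoplanin (Pdpn, 21.6 and 28.0 CPM against 9.13 and 8.61, 1.48) and Tspan15 were called higher and Erg lower, with Tspan15 at 0.29 and not called without culture B and at 2.14 without culture A. Lubricin (Prg4) stood at 96.5 and 38.9 CPM against 55.8 and 59.4, above in culture A and below in culture B. Of 4 perichondrium genes, Thbs2 was called lower.

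All 11 chondrocyte genes were called lower (median -2.98), with Col2a1 at 567 and 895 CPM against 5720 and 5535. Of the 11, 2 stayed called lower when Col2a1 cells were left out of the other cells alone, and 11 when they were left out of the gated cells alone. All 6 immune genes outside the gate were called lower, as the gate asks for few immune UMIs. Of 5 myocyte, 3 glial and 6 pericyte genes, 2, 1 and 2 were called lower and none higher, where 6.05% and 3.77% of all genes were, so that the absence of higher calls is no result about these short lists. Of 7 adipogenic genes, Fabp4, a fatty acid binding protein gene, was called higher at 27.5 and 29.3 CPM against 8.65 and 9.67 (log2 fold change 1.63), lipoprotein lipase (Lpl) was called lower, and Dlk1, a membrane protein that holds back fat differentiation, was called higher at 413 and 1308 CPM against 195 and 238 (1.78). With Col2a1 cells left out of the other cells Dlk1 gave 3.68, and Lpl (-0.57) was not called. Without culture B Dlk1 gave 1.07.

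**Figure D3:**
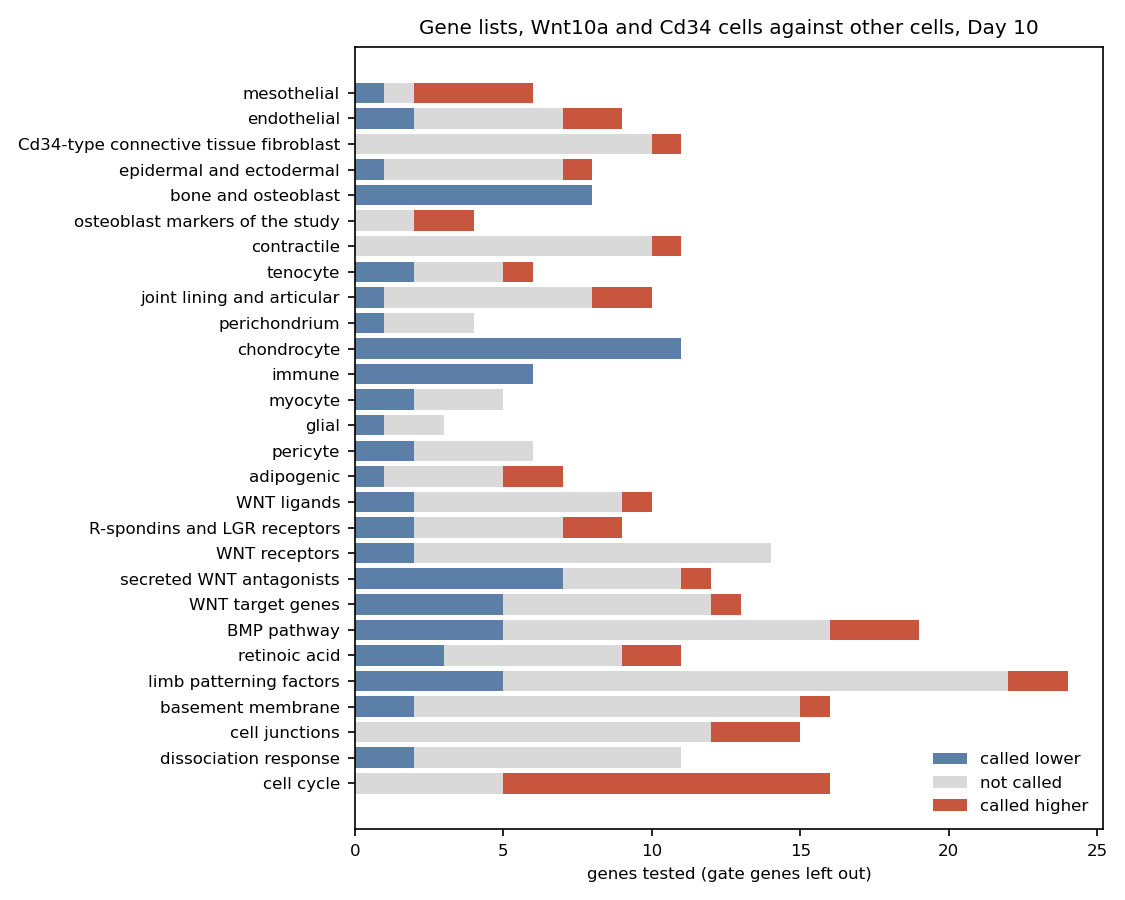
Number of tested genes of each list that were called higher, called lower or not called in the Wnt10a and Cd34 cells of Day 10 against the other cells, as stacked bars. All 8 bone, all 11 chondrocyte and all 6 immune genes are called lower, and the cell cycle list has 11 of 16 called higher.

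Within the WNT pathway, the ligands moved singly, where 3.77% of all genes were called higher and 6.05% lower. Of 10 tested ligand genes other than Wnt10a, the label gene Wnt6 was higher, and Wnt4 (1.85 and 2.80 CPM against 16.0 and 17.3, log2 fold change -2.83) and Wnt16 (-1.02) were called lower. Wnt4 was not called with Col2a1 cells left out of the other cells (-0.47), and Wnt16 was not called in cells of 20000 to 50000 UMIs (-0.70) or without culture B (-0.54). Wnt10b, the close relative of Wnt10a, stood at 1.07 and 0.97 CPM against 1.05 and 1.16. Wnt5a, which acts largely outside the β-catenin route, stood at 30.7 and 26.7 CPM against 45.1 and 50.3. Wntless (Wls), needed for WNT secretion, stood at 215 and 174 CPM against 210 and 214, and was not called.

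The R-spondins went in opposite directions. Rspo1 was higher, while Rspo3 stood at 67.8 and 50.6 CPM against 224 and 230 (log2 fold change -1.96) and was called lower, and Rspo2, at 32.1 and 18.7 CPM against 18.0 and 13.4, was not called. Of their receptors, Lgr6 was called higher (1.71 and 1.64 CPM against 0.68 and 0.75, 1.23) and Lgr5 lower (-1.52). Lgr6 lost its call in cells of 20000 to 50000 UMIs (1.14, adjusted p = 0.12, edgeR) and kept it in 12 of 22 alternatives. Of 14 WNT receptor genes, against 3.77% of all genes called higher and 6.05% lower, none was called higher, and Fzd8 (-1.41) and Fzd9 (-2.64) were called lower, Fzd9 at -0.94 and not called with Col2a1 cells left out of the other cells.

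Of 12 secreted WNT antagonists, 7 were called lower and 1 higher (median -1.41), against 6.05% and 3.77% of all genes. Frzb, the sFRP of cartilage, stood at 9.54 and 7.42 CPM against 57.6 and 55.9 (log2 fold change -2.75), and Dkk1, Sfrp2, Sfrp4, Sfrp5, Wif1 and Sostdc1 were the other genes called lower. With Col2a1 cells left out of the other cells, Frzb (-0.72) was not called. Dkk1 (-1.57 and -1.11) and Sfrp4 (-1.39 and -1.01) were not called in cells of 20000 to 50000 UMIs and without culture B, and Sfrp2 (-0.83) without culture A. Notum, the enzyme that removes the lipid of WNT proteins and is itself a target of the pathway, was called higher, at 3.84 and 24.8 CPM against 2.37 and 2.89 (2.07 ± 0.46, adjusted p = 0.0065, edgeR). Without culture B its value was 0.68 and it was not called. Of 13 tested WNT target genes, Notum was called higher and Lef1, Tcf7, Nkd1, Tnfrsf19 and Lgr5 lower, while the feedback gene Axin2 stood at 1.92 and 3.22 CPM against 1.72 and 1.85. The list's median was -0.97. With Col2a1 cells left out of the other cells, 3 targets were called lower and Axin2 was called higher (1.08). Lef1 was not called with Col2a1 cells left out of the other cells (-0.22) or without culture B (-0.86), nor Tcf7 without culture A (-1.08) or culture B (-1.36). The count of targets called lower was 3 without culture B and 1 in thinned cells.

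Of all genes tested, 3.77% were called higher and 6.05% lower. Of 19 BMP pathway genes, 3 were called higher, among them the antagonist genes Fst and Grem1. Follistatin (Fst) stood at 182 and 208 CPM against 60.6 and 53.2 (log2 fold change 1.78) and Grem1 at 82.9 and 84.9 against 39.8 and 38.2 (1.11). The antagonists Nog (5.34 and 6.94 CPM against 40.7 and 41.5, -2.74) and Chrdl1 and the ligands Bmp2, Bmp5 and Bmp6 were called lower. With Col2a1 cells left out of the other cells, Grem1 (0.88) and Bmp6 (1.19) were not called. Of 11 genes of the retinoic acid list, 2 were called higher, among them the carrier Crabp1, and Rbp4 (-2.24), Dhrs3 (-1.46) and the degrading enzyme Cyp26b1 (-1.17) were called lower.

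Of 24 limb patterning factors, Tbx3 (17.8 and 23.2 CPM against 9.12 and 8.58, log2 fold change 1.21) and Meis2, a factor of the proximal limb (28.3 and 55.5 against 15.5 and 16.6, 1.33), were called higher, and neither was without culture B (0.95 and 0.85). Hoxa13, the autopod factor that the study followed, stood at 3.27 and 2.25 CPM against 11.8 and 11.1 (-2.07) and was called lower with Hoxa11, Msx1, Msx2 and Lhx2. Hoxd13 stood at 15.6 and 11.1 CPM against 18.0 and 14.4 and was not called. Col18a1 was the only one of 16 basement membrane genes called higher, with Lama1 and Nid2 lower, and 3 of 15 junction genes were called higher (3.77% of all genes tested), among them Gjb2 and Cldn1. Cldn1 was not called in cells of 20000 to 50000 UMIs (2.16, adjusted p = 0.05, edgeR) or without culture A (1.91), nor Nid2 with Col2a1 cells left out of the other cells (-0.14). Of 11 genes of the dissociation response, none was called higher, and Fos and Fosb were called lower. With 3.77% of all genes called higher and 6.05% lower, the absence of higher calls is no result about this list. Fosb missed the size limit in cells of 20000 to 50000 UMIs (-0.97), and Fos (-0.99) and Fosb (-0.89) missed it in thinned cells.

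Of 16 cell cycle genes, 11 were called higher (median log2 fold change 1.09), against 3.77% of all genes. Mki67 stood at 90.3 and 105 CPM against 42.1 and 46.3 and Aurkb at 33.5 and 37.0 against 13.2 and 13.9. None of the 16 was called in cells of 20000 to 50000 UMIs, and 3 were called in cells of at most 40000 UMIs. In the former cells the values stayed above 0 with adjusted p under 0.05 but below the size limit for Mki67 (0.74), Aurkb (0.78) and Birc5 (0.91).

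Gated cells with Msln differed from those without it in several of the other genes looked at, which is a description within cells chosen by the gate. Msln was detected in 46 of 313 gated cells of culture A and 166 of 395 of culture B. In culture B, Rspo1 was found in 49.4% of the cells with Msln and 10.0% of those without, Wnt6 in 40.4% and 16.2%, Dlk1 in 95.8% and 69.4%, and Il1rl1 in 74.1% and 39.3%, at median depths of 40227.5 and 40812 UMIs. In culture A the shares were 23.9% and 4.12% for Rspo1, 21.7% and 8.61% for Wnt6, 67.4% and 55.8% for Dlk1 and 71.7% and 38.6% for Il1rl1, at 48657.5 and 41885 UMIs. Tnmd went the other way, in 7.23% of cells with Msln and 34.1% of those without in culture B and in 10.9% and 33.0% in culture A. Crabp1 differed between the cultures, at 30.1% against 52.4% in culture B and 63.0% against 56.6% in culture A. Rspo1, Wnt6, Dlk1 and Il1rl1 were thus commoner in Msln cells of both cultures, and Tnmd rarer. The gap was small in culture A for Krt7 (8.70% against 6.37%, and 28.3% against 8.30% in culture B). It was small in culture B for Stmn2 (45.2% against 43.2%, and 56.5% against 43.1% in culture A). For Prg4 it was small in both, at 17.4% against 16.1% in culture A and 7.23% against 6.55% in culture B.

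The gated cells were set against 3 other classes of the same cultures, each chosen by UMIs of 1 gene, without gated cells and without cells that passed more than 1 class gate. These were Prg4 cells (372 in culture A and 345 in culture B), Cnn1 cells (588 and 556) and Tnmd cells (515 and 441). In this fit of 13501 genes the gated cells had Msln at 13.0 and 68.0 CPM, Stmn2 at 309 and 224, Actg2 at 290 and 260 and Dlk1 at 409 and 1295, slightly different from above since fewer cells set the scaling.

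Against Prg4 cells, 663 genes were called higher (4.91% of those tested) and 505 lower (3.74%), with a median of -0.01. Sncg (log2 fold change 5.79) led the higher genes. Stmn2 stood at 11.5 and 5.08 CPM in Prg4 cells (5.03), Actg2 at 10.2 and 11.3 (4.68), Msln at 2.19 and 0.65 (4.55) and Dlk1 at 38.1 and 33.2 (4.45). Ahr (4.16), Efemp1 (4.03), Krt7 (3.91), Slco2a1 (3.85) and Gsc, a homeobox gene of the head and limb mesenchyme (16.4 and 23.9 CPM against 1.83 and 0.73, 3.95), followed. Hoxa13 was among the lower genes, at 3.25 and 2.23 CPM against 31.4 and 36.8 in Prg4 cells (-3.65). Igfbp3 stood at 46.7 and 27.8 CPM against 473 and 385 (-3.56) and Rspo3 at 67.2 and 50.1 against 362 and 442 (-2.78). Galnt13 (-4.11), Wfdc1 (-3.97), Clec14a (-3.01), the protease gene Mmp3 (-2.95), Megf6 (-2.74), Bmper (-2.53) and Dhrs3 (-2.50) completed the lower genes. Of 10 contractile genes outside the class gates 7 were called higher, beside the 22.4% and 14.4% of gated cells that passed the Cnn1 gate, which Prg4 cells exclude. Of 24 limb patterning factors 6 were called higher, among them Tbx3 (2.64), Shox2 (2.64) and Meis2 (3.11), and 8 lower.

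Against Cnn1 cells, 490 genes were called higher (3.63%) and 374 lower (2.77%), with a median of -0.02. Msln stood at 0.84 and 0.53 CPM in Cnn1 cells (log2 fold change 5.68), Efemp1 at 1.49 and 0.72 (5.22) and Dlk1 at 38.6 and 43.2 (4.27). Sbsn (3.57), Sncg (3.54), Kcnn4 (3.46), Car9, a carbonic anhydrase (3.42), Ahr (3.41), Il1rl1 (3.31) and Spon2 (3.24) followed. None of the 10 contractile genes was called higher and 6 were called lower. Cnn1 cells are chosen by a contractile gene, which by itself raises such genes in them. The pericyte gene Rgs5 stood at 1.06 and 1.93 CPM against 21.8 and 35.7 (-4.25), and Ankrd1, a stretch-induced gene of muscle, at 26.0 and 22.9 against 136 and 181 (-2.69). Alkal1 (-2.60), Pappa (-2.42), Ctla2a (-2.36), Msx2 (-2.22), Acta1 (-2.19), Htr1b (-2.15), Glipr1 (-2.01) and Dmpk (-1.94) were the other lower genes named by rule. Gjb2 was not called against Cnn1 cells, where it stood at 93.5 and 89.2 CPM (0.21), and Stmn2, at 220 and 134 CPM there, differed by less than the size limit (0.62, adjusted p = 0.0013, edgeR).

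Against Tnmd cells, 568 genes were called higher (4.21%) and 720 lower (5.33%), with a median of -0.03. Msln stood at 0.06 and 0.07 CPM in Tnmd cells, which is 1 UMI in each culture, too few for a fold. Efemp1 (log2 fold change 5.46), Krt7 (5.25), Sncg (4.86), Il1rl1 (4.54), Gjb2 (4.06), Kcnn4 (4.04), Stmn2 (3.88), Fosl1 (3.86) and Col18a1 (3.48) were the leading genes. Of the lower genes, Gpha2, a glycoprotein hormone subunit, stood at 1.34 and 0.48 CPM against 74.7 and 40.01 (-5.98), and the matrilin gene Matn4 at 32.8 and 36.3 against 207 and 219 (-2.63). Slpi (-3.31), Bex1 (-3.09), the iron exporter gene Slc40a1 (-2.85), Lbp (-2.73), Cilp2 (-2.61), Megf6 (-2.51) and Srpx2 (-2.50) followed. Lyz2 was called lower as well, at 1.06 and 1.93 CPM against 39.8 in culture A and 5.17 in culture B, a wide gap between the cultures. Of the 10 contractile genes 6 were called higher, where Tnmd cells likewise exclude cells that passed the Cnn1 gate.

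Notum, Fst, Dlk1, Crabp1, Il1rl1, Efemp1 and Ahr were called higher against each of the 3 classes. Against all other cells Notum fell to 0.68 without culture B, and no class fit without a culture was run. For Crabp1 the log2 fold change was 3.40 against Prg4 cells, 2.95 against Cnn1 cells and 1.26 against Tnmd cells, where it stood at 104 and 103 CPM. Of the 16 cell cycle genes 0, 2 and 1 were called higher against Prg4, Cnn1 and Tnmd cells. Of all genes, 4.91%, 3.63% and 4.21% were, so these counts are no result about the list. The 3 comparisons share the gated cells, so they are not independent of each other.

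**Figure D4:**
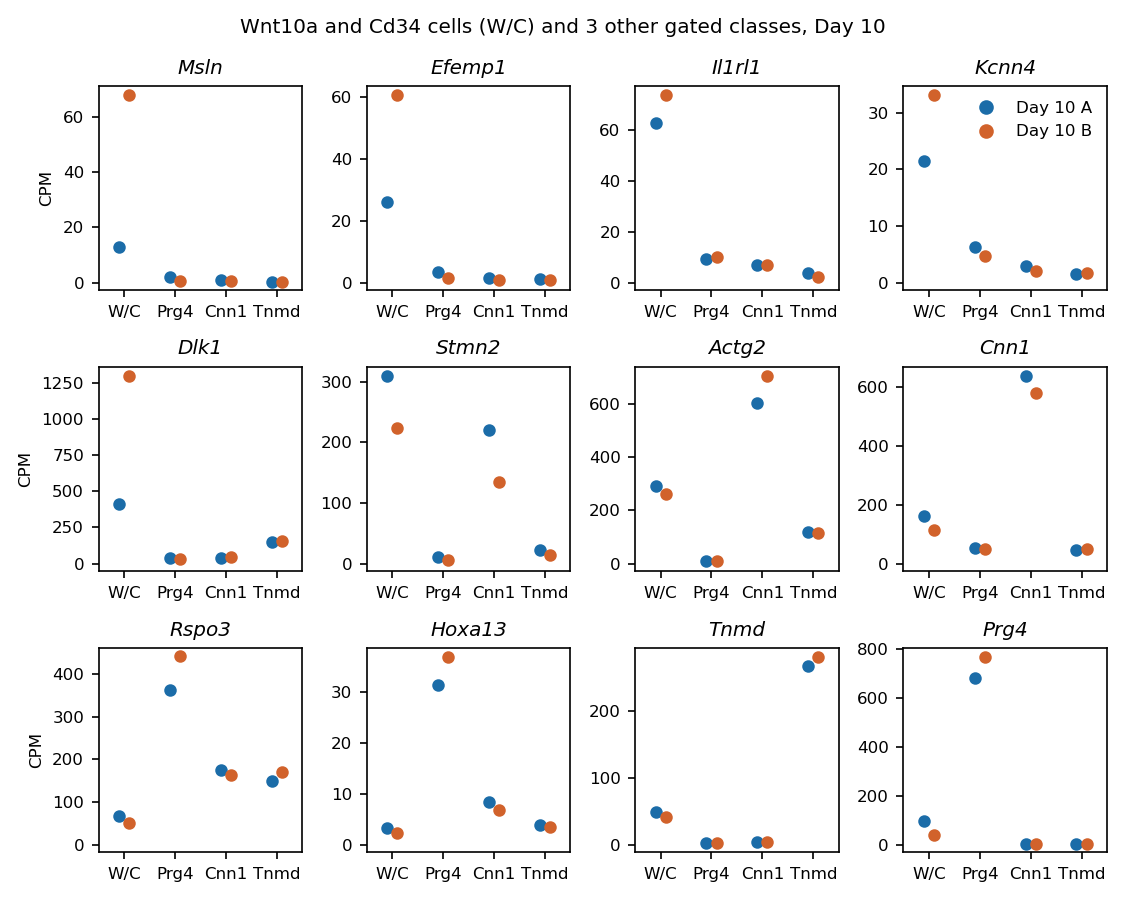
Level (CPM, linear axis from 0) of 12 genes in the Wnt10a and Cd34 cells (W/C) and in Prg4, Cnn1 and Tnmd cells of Day 10, with a point per culture, A in blue and B in orange. Msln, Efemp1, Il1rl1, Kcnn4 and Dlk1 are highest in the Wnt10a and Cd34 cells, Stmn2 is also high in Cnn1 cells, Actg2 is highest in Cnn1 cells, and Rspo3 and Hoxa13 are highest in Prg4 cells, while Cnn1, Tnmd and Prg4 are the genes that chose their classes.

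The gated cells were not uniform. Cells with Wnt10a and no Cd34 UMI were set against cells with Cd34 and no Wnt10a UMI, and of 11578 genes tested 116 were called higher (1% of those tested) and 237 lower (2.05%), with a median of 0.00. The split reads the gate genes, and only other genes were tested. Prg4 was among the higher genes, at 201 and 79.0 CPM in Wnt10a-only cells against 1.57 and 1.27 in Cd34-only cells (log2 fold change 6.57 ± 0.26, adjusted p = 7.64e-06, edgeR). Cells with both genes lay between, at 54.1 and 28.1 CPM. Few cells carried these Prg4 values. Of all gated cells, 51 of 313 in culture A and 27 of 395 in culture B held a Prg4 UMI, and 22 and 8 held at least 3. Krt7 stood at 13.9 and 48.1 CPM against 0.39 and 0.84, and at 7.44 and 65.6 with both. Krt19, another simple keratin, stood at 39.9 and 30.2 CPM against 4.33 and 1.69 (3.51), and at 4.86 and 6.23 with both. Grem1 stood at 120 and 135 CPM against 28.3 and 20.7 (2.37), with 75.6 and 75.4 with both. Spp1 was also called higher, at 4551 and 4884 CPM against 1478 and 1848 (1.51).

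Msln stood at 16.1 and 30.9 CPM in Wnt10a-only cells and 3.54 and 2.11 in Cd34-only cells, and at 14.4 and 103 CPM with both genes, which is a description for this label gene as for Rspo1 and Wnt6. Efemp1 (2.96), the muscle filament gene Des (2.62) and the chemokine gene Ccl20 (3.01) were higher in Wnt10a-only cells. Angptl7 and the actin gene Acta1 (3.32) also met the rule, but most of their UMIs came from culture B, with 0.20 and 52.2 CPM for Angptl7 in Wnt10a-only cells and 7.25 and 49.6 for Acta1. Rspo1, at 4.83 and 8.51 CPM in Wnt10a-only cells and 0 and 0.42 in Cd34-only cells, stood at 3.65 and 26.4 with both. Wnt6 stood at 3.83 and 8.09 CPM in Wnt10a-only cells, 1.57 and 1.69 in Cd34-only cells and 6.84 and 15.4 with both.

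Among the genes higher in Cd34-only cells was the tendon gene Tnmd. It stood at 121 and 177 CPM against 18.9 and 5.75 in Wnt10a-only cells (log2 fold change -3.64), with 42.4 and 25.04 in cells with both. Igf1, the insulin-like growth factor, stood at 287 and 300 CPM against 25.8 and 17.9 (-3.77), with 122 and 79.6 with both, and Lpl at 70.9 and 87.4 against 7.45 and 5.75 (-3.57). The WNT antagonist Sfrp2 stood at 33.1 and 82.7 CPM against 4.23 and 4.90 (-3.59), and Itm2a at 64.2 and 179 against 9.06 and 5.96 (-3.88). Chodl, a lectin-like gene, was counted in Cd34-only cells at 41.7 and 28.7 CPM and in no Wnt10a-only cell. Steap4 (-4.39), Pappa2 (-4.39), Egfl6 (-4.01) and Cpxm2 (-3.26) were the other genes. Of 6 tenocyte genes 4 were called lower in Wnt10a-only cells and none higher, against 2.05% and 1% of all genes.

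Crabp1 was called lower in Wnt10a-only cells, at 77.1 and 74.9 CPM against 324 and 289, with 405 and 283 in cells with both (log2 fold change -2.01). Dlk1 was highest in cells with both genes, at 595 and 1776 CPM, with 160 and 623 in Wnt10a-only and 426 and 743 in Cd34-only cells, whose difference was not called (-0.83, adjusted p = 0.0579, edgeR). Notum was also highest with both, at 6.53 and 39.6 CPM, with 2.01 and 5.96, and 0.39 and 2.11, in the others. Stmn2, at 166 and 162 against 229 and 169 CPM, and Il1rl1, at 74.9 and 40.9 against 31.5 and 24.9, were not called. Of 16 cell cycle genes 6 were called lower in Wnt10a-only cells and none higher, against 2.05% and 1% of all genes. The absence of higher calls is thus no result about this list. The median depths were 43322 and 43388 UMIs in Wnt10a-only cells and 37872 and 35824 in Cd34-only cells.

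**Figure D5:**
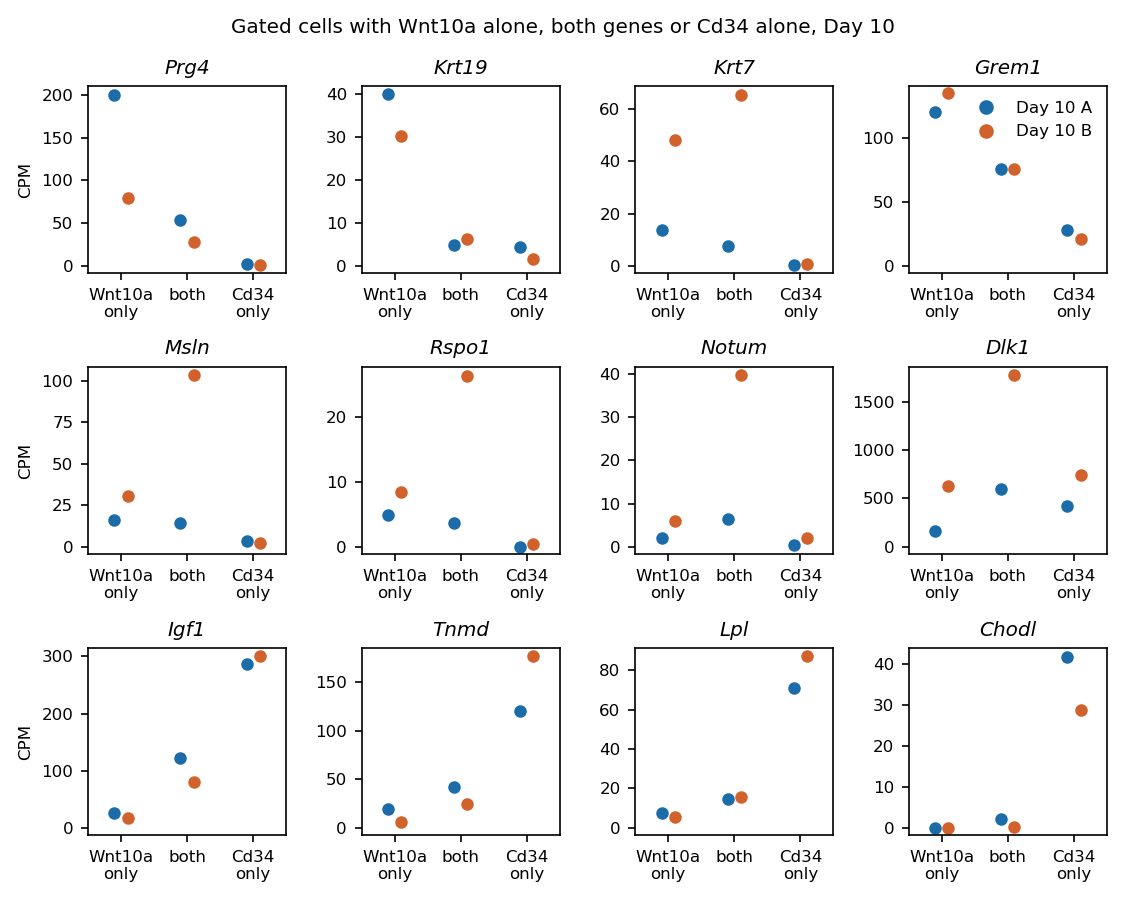
Level (CPM, linear axis from 0) of 12 genes in cells with Wnt10a alone, with both genes and with Cd34 alone at Day 10, with a point per culture, A in blue and B in orange. Prg4, Krt19 and Grem1 are highest with Wnt10a alone, Tnmd, Igf1, Lpl and Chodl with Cd34 alone, and Dlk1 and Notum with both.

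The same gate was applied to Day 7, whose libraries the gate at Day 10 did not read, although earlier results of the whole series were known when its genes were chosen. There it took 70 and 79 cells, and 693 genes were called higher (4% of 17310) and 961 lower (5.55%) than in the other Day 7 cells, with a median of -0.08. Of the genes called higher, 354 were called at both days, 54.3% of the Day 10 calls and 51.1% of the Day 7 calls, and of those called lower 537, 51.3% and 55.9%. No gene was called in opposite directions. Of the 20 genes named for Day 10, 19 were called higher at Day 7 as well, the exception being Klk8 (log2 fold change 1.02, adjusted p = 0.142, edgeR), and all 10 lower genes were called lower.

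The label genes were higher in the gated cells of Day 7 as well. Label and gate genes were picked with results of the whole series known, so their p-values here are no independent support. Msln stood at 20.2 and 5.02 CPM against 0.09 and 0.08 (log2 fold change 7.15 ± 0.75, adjusted p = 6.25e-05, edgeR), Rspo1 at 4.41 and 3.25 against 0.13 and 0.12 (4.95 ± 0.66, adjusted p = 0.00027), and Wnt6 at 4.41 and 1.77 against 0.19 and 0.28 (3.73 ± 0.63, adjusted p = 0.0013). Here culture A lay above culture B for all 3. Few cells and UMIs carried these values, since Msln was found in 15.7% and 7.59% of the gated cells of Day 7, and Rspo1 rested on 14 and 11 UMIs and Wnt6 on 14 and 6. In culture A all Msln UMIs of the gated cells came from the 26 cells with 6 or more gate UMIs, where it stood at 50.3 CPM. Il1rl1 led the genes that the naming rule gives for Day 7, at 77.2 and 57.6 CPM against 2.82 and 3.02 (4.52), and Stmn2 followed, at 261 and 234 against 14.1 and 15.3 (4.07). Kcnn4 (3.76), Krt8 (3.73), Krt7 (3.5), Igfbp6 (3.47), Fosl1 (3.39), Ccl20 (3.34), Col18a1 (3.34) and Ereg (3.29) came next. The lower genes included Meltf (-5.05), Cmtm5 (-4.28), Panx3 (-4.23), Snorc (-4.15), Efcab1 (-4.08), Scin (-3.91), Ucma (-3.87), Scrg1 (-3.80) and Cnmd (-3.80), with cartilage genes again among them. In cells gated on Wnt10a alone, Cd34 stood at 24.8 and 11.6 CPM against 1.15 and 1.63 at Day 7 (log2 fold change 3.72, adjusted p = 3.32e-05, edgeR), and in cells gated on Cd34 alone, Wnt10a stood at 53.8 and 22.6 against 1.57 and 1.83 (4.44, adjusted p = 1.21e-05).

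The difference between the days was itself tested, and 25 genes were called with a higher effect at Day 10 (0.144%) and 39 with a lower one (0.225%), with a median of 0.02. The other cells changed between the days, with 65.9% and 57.6% of them passing the Col2a1 gate at Day 7 and 42.0% and 42.5% at Day 10. With Col2a1 cells left out of the other cells alone, 11 genes were called with a higher effect and 3 with a lower one, and Dlk1 was at 1.39 at Day 7. The study's osteoblast markers Stmn2 and Spp1 had lower effects at Day 10. Stmn2 went from 14.1 and 15.3 CPM in the other cells of Day 7 to 51.4 and 32.7 at Day 10, while the gated cells held 261 and 234 and then 312 and 227 (difference -1.38, adjusted p = 0.00036, edgeR). Spp1 went from 489 and 491 to 1298 and 1373 CPM in the other cells, with 3063 and 3587, then 3512 and 3458, in the gated cells (-1.37). Dlk1 had a higher effect at Day 10 (difference 2.49, adjusted p = 0.0217, edgeR), since the other cells held 848 and 892 CPM at Day 7 and 195 and 238 at Day 10, against 757 and 364, then 413 and 1308, in the gated cells. Msln, Rspo1 and Wnt6 did not pass the test of the difference (-1.96, -0.16 and 0.28). Of 11 contractile genes 7 were called higher at Day 7 and 1 at Day 10, against 4% and 3.77% of all genes. For none of the 11 was the difference between the days called (Tagln -0.87, adjusted p = 0.0041, edgeR). Without culture A of Day 10 the days differed in 116 genes higher and 102 lower, without culture B of Day 10 in 30 and 32, without culture A of Day 7 in 57 and 100, and without culture B of Day 7 in 16 and 37.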

How the data were processed

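Droplet single-cell libraries (10x 3′ chemistry) came from replicate cultures, lettered A and B within each time point, after 2, 7 and 10 days. The values are UMI counts per gene and barcode, which the authors made with Cell Ranger 6.1.2 on GRCm38 and deposited without normalisation. The cell filters were the limits given in the report. The study also filtered on ribosomal share, which was not applied here. No doublet caller was run.

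Counts were summed per library and cell group. The sums were tested with edgeR 4.0.16 in R 4.3.3 (quasi-likelihood test, TMM scaling, filterByExpr, library as a covariate), and CPM values use the TMM-scaled totals. Day 7 and Day 10 sums entered the gate comparison together (17310 genes), and the 3 classes (13501 genes) and the 3 gate types (11578 genes) were fitted on Day 10. The samples of a pair come from 1 library, so the pairing is given by the design, and the deviations of paired sums correlated at 0.0055 at Day 7 and 0.20 at Day 10. The genes that a gate read were left out of its test. P-values were adjusted by the Benjamini-Hochberg method over all genes tested.

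Named genes were the 20 called genes of largest log2 fold change with at least 20 CPM in the gated cells and the 10 most negative with at least 20 CPM in the other cells. In each other comparison they were 10 in each direction by the same limit, all with the same direction in both cultures, with list genes, label markers and the study's markers beside them. For the difference of days, that direction pairs separate cultures by their letter alone. A few genes that met these rules are not reported here. The members and lists were chosen with earlier results of these data known. On simulated counts for 17073 genes of the Day 10 comparison, all 100 genes changed by a log2 fold change of 2 and all 100 changed by 1.5 were called, with 2 false calls. The changed genes had at least 20 expected counts in the smallest sum. All genes had the same coefficient of variation (0.077), and no culture effect was added. The simulation thus says nothing of genes with fewer counts or a wider gap between cultures. Alternatives in normalisation, filter, test (DESeq2 1.42.0), gate and cell limits are given in the closing section. Promoters came from RefSeq.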

Additional observations from a re-analysis of the deposited data

Results flagged for a closer look

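The effect of the gate differed between Day 10 and Day 7 for the genes below, by the interaction term of edgeR's quasi-likelihood test. Each difference is the Day 10 log2 fold change minus that of Day 7. Of the other cells, 65.9% and 57.6% passed the Col2a1 gate at Day 7 and 42.0% and 42.5% at Day 10. With Col2a1 cells left out of the other cells alone, 11 genes were called with a higher effect and 3 with a lower one. No explanation was tested.

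The genes below are the 10 largest in each direction among those with at least 20 CPM and the same direction in both pairs of libraries. A pair is the gated cells of Day 7 and of Day 10 under the same letter. Dlk1 (2.49), Stmn2 (-1.38) and Spp1 (-1.37) did not meet this limit. The letters do not link a culture across days, so the pairing is arbitrary. Dlk1 would meet the limit with the letters of a day exchanged, and Stmn2 and Spp1 would not. Fabp4 differed by 1.94, with 27.5 and 29.3 CPM in the gated cells of Day 10 and 24.3 and 23.0 at Day 7, while the other cells went from 27.6 and 30.7 to 8.65 and 9.67. The noncoding genes B830012L14Rik (1.49), Mirg (1.44), Rian (1.37) and Meg3 (1.24) were also among them. Meg3 stood at 839 and 853 CPM in the gated cells against 2244 and 2447 in the others at Day 7, and at 923 and 1001 against 1093 and 1167 at Day 10. Lars2, a mitochondrial leucyl-tRNA synthetase gene, differed by 1.36, Ugdh by 1.29, Egr3 by 1.23, Phyh by 1.08 and Nr4a1 by 1.03.

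Among the genes with a lower effect at Day 10, Il1rn, the interleukin-1 receptor antagonist, differed by -2.22, with 29.6 and 43.4 CPM against 4.56 and 5.07 at Day 7 and 13.6 and 19.4 against 9.67 and 10.6 at Day 10. Ccl2 differed by -2.05 and Ccl20 by -1.99, the latter with 74.7 and 80.9 CPM in the gated cells of Day 7 and 22.8 and 15.3 at Day 10. Elastin (Eln, -1.40), Spint2 (-1.34), Pappa (-1.33), Mt2 (-1.30), Dpysl3 (-1.25), Mgll (-1.20) and the protease inhibitor gene Timp1 (-1.12) followed.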

How the results depend on the processing

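For the Day 10 comparison, the 19 named higher genes beside the label gene Msln stayed called under each of 22 alternatives. The 652 higher and 1047 lower genes became 733 and 1288 without the replicate block, which pairs the sums of a library. Higher genes fell to 434 with cells of at most 40000 UMIs and 340 with a gate of 1 UMI in cells thinned to 3000 UMIs, and lower genes to 620 with Col2a1 cells left out of the other cells, 688 in cells of 20000 to 50000 UMIs and 598 in thinned cells. At Day 7, higher genes fell to 438 (at most 40000 UMIs), 244 (no Col2a1 cells among the others) and 435 (gated cells without Prg4, Cnn1 and Tnmd cells), and lower genes to 562, 541, 599 (20000 to 50000 UMIs) and 607 (thinned). Calls on the difference of days moved most: the 25 higher became 16 without the block, 114 without the filter on low counts, 39 with all 6 libraries, 54 with at most 40000 UMIs, 11 without Col2a1 cells among the others, 75 with gated Col2a1 cells left out and 15 with gated cells of the other classes left out. The 39 lower became 19, 139 and, with a gate of 2 UMIs, 76, then 85 (at most 40000 UMIs), 3 (no Col2a1 cells among the others), 19 (20000 to 50000 UMIs), 74 (thinned), 90 (gated Col2a1 cells left out) and 10 (other classes left out). Against Cnn1 cells DESeq2 called 241 lower, and doubled class gates gave 767 higher. Wnt10a-only cells had 73 higher genes without the block, 70 with DESeq2 and 204 without the filter. The causes of these changes were not tested.

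The share of gated cells in cultures A and B was 5.99% and 6.61% with a gate of 2 UMIs, 1.80% and 3.06% with 5, 0.0479% and 0.215% with 3 UMIs after thinning, 4.32% and 5.53% with a mitochondrial limit of 10%, and 3.25% and 4.14% with 40%. The thinned gate of 3 UMIs left too few cells to be fitted.

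Leaving out 1 library gave 394 to 669 higher and 704 to 1146 lower genes at Day 10, 575 to 604 and 816 to 1125 at Day 7, and 16 to 116 and 32 to 102 for the difference. Cd34 under the Wnt10a gate ranged from 2.81 to 3.57 (Day 7 2.81 to 4.43) and Wnt10a under the Cd34 gate from 2.91 to 4.10 (Day 7 3.63 to 5.12). These fits assume that the lone library varies like the others. Fits of the classes and types without a culture were not run, since 1 library leaves no residual degrees of freedom.

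Single genes changed direction as follows. With a gate of 5 UMIs, Cnn1 was -0.094 and Prg4 -0.048. Prg4 was -0.29 with at most 40000 UMIs, -0.37 in cells of 20000 to 50000 UMIs, -0.63 without culture A (0.77 without culture B) and -0.78 thinned, where Cnn1 was -0.17. With gated cells of the other classes left out, Cnn1 was -1.47, Actg2 -0.98 and Prg4 -4.65, an alternative that takes such cells from the gated cells alone. Cldn5 was -4.92 without culture B and 7.73 without culture A. With Col2a1 cells left out of the others, Cnn1 was -0.33, Prg4 -0.53, Ucma 0.017, Snorc 1.72, Cnmd 1.60, Hapln1 0.81, Matn1 1.82, Col2a1 1.60, Acan 0.93 and Bmp6 1.19, and at Day 7 Cmtm5 was 0.67, Snorc 1.17, Efcab1 0.040, Scin 0.43, Scrg1 0.45, Cnmd 0.50, Dlk1 1.39 and Col2a1 0.89. The alternatives on depth, thinning and gated cells (20000 to 50000 UMIs, 1 UMI in thinned cells, gated Col2a1 or class cells left out) were chosen after seeing the data.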
